A study of Homo sapiens with 8 samples.

Results

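Androgens act through the androgen receptor, a transcription factor that binds its hormone in the cytoplasm, is held ready by heat shock protein chaperones, and then binds response elements in DNA together with pioneer factors such as FOXA1 and HOXB13. In luminal prostate cells its best known targets are secreted kallikreins, membrane proteins and the chaperone FKBP5, and the serum marker PSA is the product of one of them, KLK3. Prostate cancer cell lines differ in whether they keep this programme. The 8 genes described here were chosen by name and not by a cut on measured values, though with earlier results of these data known. They were KLK3, KLK2, TMPRSS2, FKBP5, SLC45A3, FOLH1, HOXB13 and STEAP2, among 43317 genes on the array. HOXB13 is a partner of the receptor more than a target of it. The receptor's own gene was not analysed here.

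The genes were read on 8 two-colour Agilent arrays that lay on 1 slide. On each array Cy3 carried RNA of mock cells, which the labels describe as not transfected, and Cy5 carried RNA of treated cells of the same line. The groups were PC3 with bisamide for 24 h, PC3 with bisamide for 48 h, C4-2 with miR-199-3p, PC3 with miR-125b-1-3p, 786-O with miR-532-5p, 786-O with miR-532-3p, T24 with miR-140-5p and T24 with miR-140-3p, with 1 array in each. Bisamide is a small molecule that inhibits pirin, and the others are microRNAs introduced by lipofection. The cells were grown in ordinary medium, and no label names an androgen or an androgen blocker. C4-2 and PC3 are prostate cancer lines, 786-O is a renal cancer line and T24 a bladder cancer line. C4-2 descends from LNCaP and is known to keep the androgen receptor, whereas PC3 is known to lack it. Mock RNA was therefore read 3 times in PC3, 2 times each in 786-O and T24, and 1 time in C4-2. The labels do not say whether the mock arrays of a line hold separate cultures, so their spread may be technical, and with 1 array in a group no p-value can be given for any treatment. A value is called measured where the scanner flagged the spot well above background, and no spot on the 8 arrays was saturated. Where values of mock RNA were compared between lines they are log2 Cy3 levels after quantile normalization, on which a spot at background lay near 5.7, and differences of dim genes are understated because an offset of 50 units was added.

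The line markers fit their labels in part. Of 4 luminal epithelial genes, EPCAM was higher in C4-2 by more than 1.5, at a log2 Cy3 level of 10.11, whereas KRT8 and FOXA1 were higher there by less and KRT18, at 11.87, was below the 12.08 of T24. The mesenchymal genes VIM and ZEB1 were lower in C4-2, at 9.59 and 5.81, than in the other lines. The kidney factor PAX8 was well above background in 786-O, but also in T24 and PC3, and PAX2, another kidney factor, was higher in T24, at 9.08, than in 786-O, at 7.81. The urothelial genes UPK1B, UPK2, UPK3A and GATA3 were well above background on no T24 mock array. The median SD between mock arrays of a line, over 12744 genes, was 0.087 log2 units in PC3, 0.039 in 786-O and 0.029 in T24.

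The effector whose mature sequence stands beside the C4-2 result is miR-199-3p. RefSeq (GRCh38.p14) holds the same 22 bases for miR-199a-3p, encoded at chr19:10817429-10817450 and chr1:172144554-172144575, and for miR-199b-3p, at chr9:128244745-128244766, all on the minus strand. The capitals mark the seed, bases 2 to 8, which pairs with target RNA.

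miR-199-3p: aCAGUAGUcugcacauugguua

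KLK3 and KLK2, neighbouring kallikrein genes on chromosome 19, were both higher in C4-2, and their promoters are shown because each holds an element of the kind the receptor binds. The 200 bases before each annotated start are given on the plus strand, 5′ to 3′, at chr19:50854715-50854914 for KLK3 and chr19:50873239-50873438 for KLK2 (RefSeq, GRCh38.p14). Capitals mark the 14 bases that match GNACANNNNGTNCT, a relaxed form of the androgen response element that was chosen after these sequences were seen.

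KLK3: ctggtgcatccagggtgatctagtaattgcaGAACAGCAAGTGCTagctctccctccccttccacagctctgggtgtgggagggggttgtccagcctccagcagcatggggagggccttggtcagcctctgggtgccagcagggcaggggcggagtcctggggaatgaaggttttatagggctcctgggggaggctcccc

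KLK2: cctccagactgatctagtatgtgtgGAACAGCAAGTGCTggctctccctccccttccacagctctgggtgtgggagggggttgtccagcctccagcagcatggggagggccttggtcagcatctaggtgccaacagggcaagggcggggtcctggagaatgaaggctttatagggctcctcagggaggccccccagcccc

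The match began 169 bases before the start of KLK3 and 175 bases before that of KLK2, and its 14 letters were the same in both. With no gaps and aligned on the match, the promoter windows of the genes had 225 of 294 bases in common, or 76.5%. Searched on both strands, the relaxed element was found in 0.701% of the 35116 promoters in the table, each a window of 300 bases around a start. The core motif AGAACA (or TGTTCT) was found in 14.8% of them, among them KLK3 and 1 of the 2 FKBP5 promoters, where it lay at the start itself. The complete element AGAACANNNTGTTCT was in 1 promoter of the table and in none of these genes. SLC45A3 and STEAP2 had none of the motifs in these windows, which says nothing of elements elsewhere, and TMPRSS2, FOLH1 and HOXB13 have no promoter in the table.

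The first question was how the androgen programme stood in the mock cells of each line. Of the 8 genes, 6 were counted higher in C4-2, meaning that the C4-2 level was more than 1.5 log2 units above every one of the 7 other mock arrays: KLK3, KLK2, FOLH1, STEAP2, SLC45A3 and TMPRSS2. Over all 22631 genes well above background in at least 1 mock array, 374 were counted, or 1.65%. FKBP5 was higher in C4-2 by less than that size, and HOXB13 was higher in PC3 instead. In RNA of a whole culture, fewer cells that express a gene and less of its RNA per cell cannot be told apart.

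KLK3, which encodes PSA, was read by a probe at chr19:51363961-51364020 (GRCh37, plus strand, as for all probe positions below unless the minus strand is named). It gave a raw Cy3 intensity of 13592 in C4-2, against 21.5, 22.6 and 22.2 on the PC3 arrays, 21.4 and 22.3 in 786-O, and 21.5 and 21.7 in T24. It stood far above background in C4-2 and at background on the 7 other arrays. The C4-2 level was at least 253-fold higher than in PC3, at least 254-fold higher than in 786-O and at least 246-fold higher than in T24, bounds that set it against the dimmest signal still well above background. No exact fold can be given against lines at background: the fitted difference over PC3 was 8.05 log2 units here, 11.91 with no offset and 15.10 with the scanner's processed signal. A second KLK3 probe, for another transcript, was dimmer but showed the same contrast, at 205 in C4-2 and 24.1 to 27.4 elsewhere.

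KLK2, a kallikrein that can activate the KLK3 product, read 992 in C4-2 with a probe placed within chr19:51380007-51380179. On the PC3 arrays it read 27.0, 28.8 and 28.2, in 786-O 22.8 and 25.7, and in T24 23.6 and 28.8. It was well above background on 2 of 3 PC3 arrays and 1 of 2 T24 arrays, but at levels that the other lines' ranges overlapped, so PC3, 786-O and T24 had no order among themselves. C4-2 stood 4.81 log2 units, or 28.1-fold, above the PC3 mean of 5.86 ± 0.01 (SD, n = 3), and at least 27.6-fold above 786-O. The fitted difference over 786-O was 4.83 log2 units, and between 2.89 and 8.76 under other ways of processing. The PC3 readings lay close to background, so the size of the difference over PC3 depended on the processing. It was 7.61 with plain background subtraction, 7.62 with an offset of 0 and 8.55 with the scanner's processed signal. With the mean over all probes of the gene it was 2.88. The longest run of bases shared between a KLK3 and a KLK2 probe was 6 of 60. Probes were compared only with probes, so whether a probe also binds the transcript of the other gene was not tested.

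FOLH1, the membrane peptidase known as PSMA, followed KLK3 in this contrast. Its raw Cy3 intensity was 2338 in C4-2 (probe at chr11:49168360-49168419, minus strand). It lay between 20.1 and 26.6 on the 7 other arrays, where it was never well above background in Cy3. C4-2 was at least 57.1-fold higher than PC3, at least 56.6-fold higher than 786-O and at least 55.6-fold higher than T24. The fitted difference over PC3 was 5.84 log2 units, and between 3.98 and 10.69 under other ways of processing, so these bounds do not hold under all of them. The second FOLH1 probe read 117 in C4-2 and 18.6 to 21.9 elsewhere. The probe of the near copy FOLH1B shared no run longer than 7 bases with either FOLH1 probe. Whether the FOLH1 probes also bind the FOLH1B transcript was not tested.

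The other membrane proteins were also higher in C4-2, but were well above background in PC3 too. Their probes lay at chr21:42836904-42836963 (TMPRSS2, minus strand), chr7:89866537-89866596 (STEAP2) and chr1:205627037-205627096 (SLC45A3, minus strand). TMPRSS2, a serine protease of the cell surface, read 286 in C4-2, 59.4, 59.2 and 69.6 in PC3, 25.2 and 22 in 786-O, and 24.1 and 23.1 in T24. C4-2 was 6.08-fold above the PC3 mean, and PC3 was at least 1.49-fold above 786-O and at least 1.44-fold above T24, lines in which the gene was not well above background in Cy3. STEAP2, a metalloreductase, read 416 in C4-2, 93.7, 95.8 and 115 in PC3, 27.2 and 23.5 in 786-O, and 52.5 and 57.8 in T24. Its lines did not overlap, in the order C4-2, PC3, T24 and 786-O, with C4-2 6.48-fold above PC3. SLC45A3, a sugar transporter also called prostein, read 1093 in C4-2, 201, 197 and 398 in PC3, 93.9 and 103 in 786-O, and 84.3 and 96.8 in T24. C4-2 was 8.43-fold above the PC3 mean of 7.71 ± 0.42 (SD, n = 3), from log2 levels of 7.46, 7.48 and 8.20, the last on the miR-125b-1-3p array. The quantile-normalized levels of SLC45A3 in PC3 and 786-O overlapped, and their order turned when the treated channel was used in place of the mock channel.

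FKBP5, a co-chaperone of steroid receptors, was the member least tied to C4-2 among those higher there. Its probe lay at chr6:35541928-35541987 on the minus strand. It read 106 in C4-2, 65.5, 57.9 and 62.3 in PC3, 32.3 and 31.7 in 786-O, and 65.8 and 69.9 in T24. All arrays of all lines were well above background. The order was C4-2, T24, PC3 and 786-O, with gaps between neighbouring lines that were larger than the range within any line. C4-2 stood 1.13 log2 units, or 2.19-fold, above T24. With the Cy3 values centred on their median in place of quantile normalization, this difference was 0.49. The difference was 1.82 with plain background subtraction, 1.82 with an offset of 0 and 1.83 with the scanner's processed signal, each past 1.5. For this dim gene the size thus depended on the processing. FKBP5 is also a known target of the glucocorticoid receptor. The second FKBP5 probe, for another transcript, was at background on every array.

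HOXB13, a homeobox factor that marks posterior tissues including the prostate, had a different pattern. Its probe lay at chr17:46802144-46802203 on the minus strand. It read 678 in C4-2 and 7455, 9538 and 9231 in PC3. In 786-O it read 21.1 and 21.6, at background, and in T24 75.4 and 74.0. The order was PC3, C4-2, T24 and 786-O, with no overlap between lines. PC3 was 5.86-fold above C4-2 and 64.3-fold above T24, and at least 115-fold above 786-O, while C4-2 was at least 19.7-fold above 786-O. The fitted difference of C4-2 over 786-O was 4.37 log2 units, and between 3.76 and 9.17 under other ways of processing. HOXB13 was the 1 gene of the 8 that was more than 1.5 log2 units higher on every PC3 mock array than on every mock array of the other lines, a count that took in 111 of all 22631 genes, or 0.49%.

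**Figure D1:**
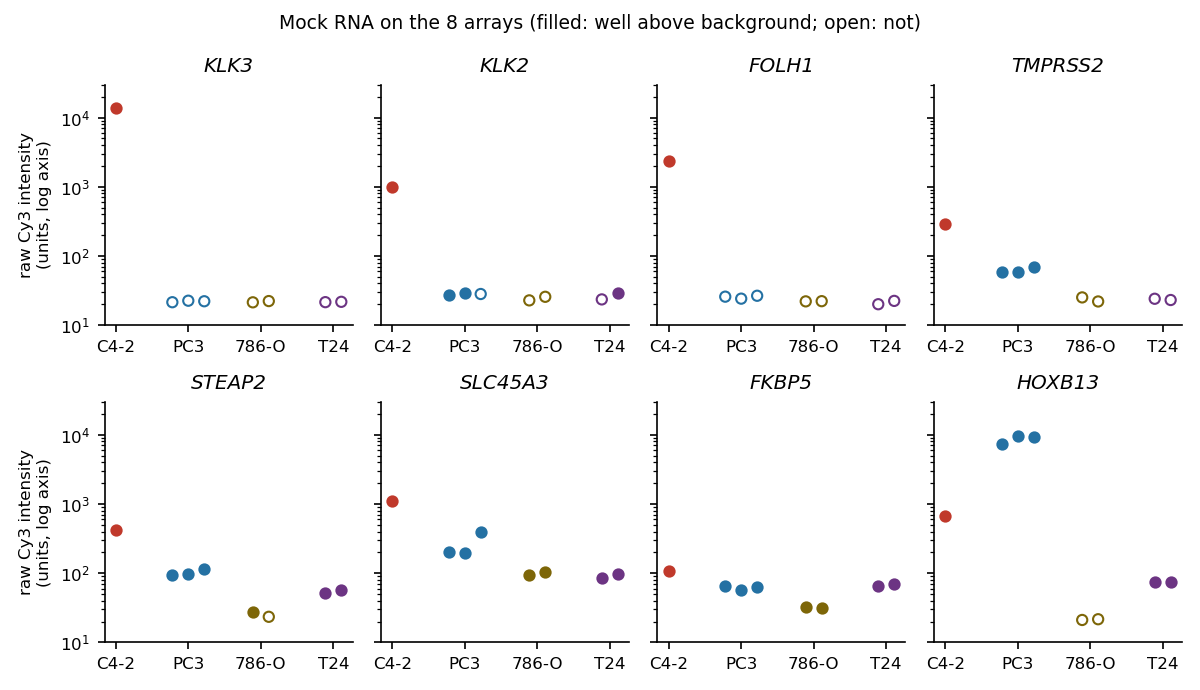
Raw Cy3 intensity of mock RNA (arbitrary units, log axis) for each of the 8 genes on each of the 8 arrays, by cell line, 1 point an array; filled points were well above background and open points were not. KLK3, KLK2 and FOLH1 stood high in C4-2 and near 20 to 29 units elsewhere, whereas HOXB13 was highest in PC3.

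**Figure D2:**
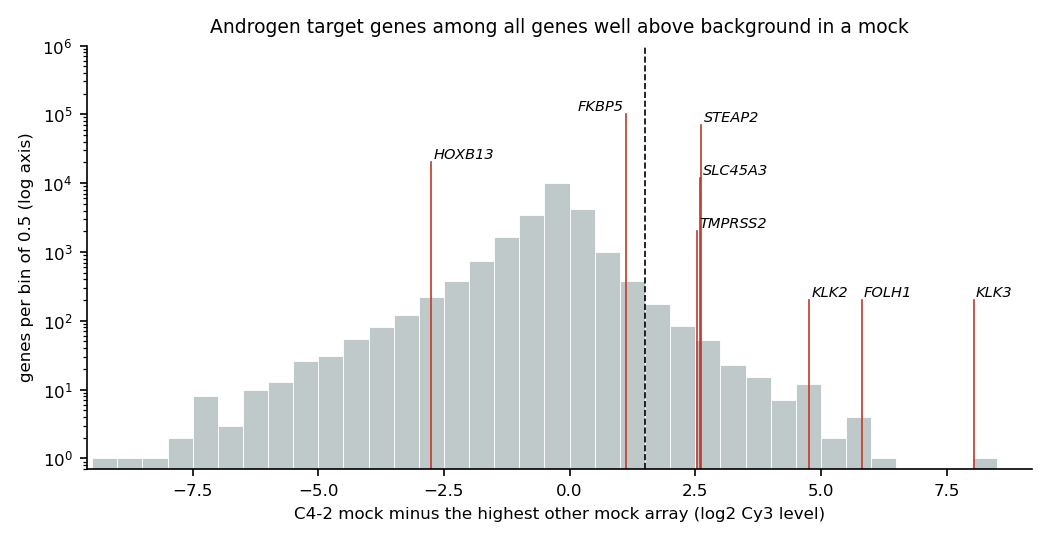
Number of genes (log axis) by the difference between the C4-2 mock and the highest of the 7 other mock arrays (log2 Cy3 level, bins of 0.5), over genes well above background in at least 1 mock array; red lines mark the 8 genes and the dashed line the difference of 1.5. KLK3, FOLH1 and KLK2 lay in the far upper tail, at values that the offset sets because the other lines were near background, TMPRSS2, SLC45A3 and STEAP2 between 2.53 and 2.61, FKBP5 at 1.12 and HOXB13 at -2.75.

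In the Cy5 channel, which held RNA of the treated cells, the number of these genes more than 1.5 log2 units higher in C4-2 than on every other array was again 6, and they were the same 6 genes, beside 1.69% of the 26981 genes well above background in Cy5 on at least 1 array. That comparison was added after the mock data were seen. Treated C4-2 cells gave 20002 units for KLK3, 1178 for KLK2, 2560 for FOLH1 and 1104 for HOXB13.

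Further androgen targets, 27 genes taken from textbook knowledge of the receptor, did not all share the pattern. Of them 22 were well above background in C4-2 and 4 were counted higher there, beside the 1.65% of all genes: AZGP1, CENPN, STEAP1 and KLK4. AZGP1, a secreted glycoprotein, had a log2 Cy3 level of 10.70 in C4-2 and at most 5.99 elsewhere. STEAP1, a relative of STEAP2, stood at 10.85 and at most 8.63, and KLK4, another kallikrein, at 7.64 and at most 5.80. CENPN, a centromere protein, was well above background in all lines, with 12.60 in C4-2 and at most 10.20 elsewhere, but another of its probes gave 8.79 in C4-2 and up to 8.60 elsewhere. The median difference over the 27 genes was 0.14 log2 units. Several listed genes were highest outside C4-2, such as NNMT, a methyltransferase, and MAF, a transcription factor, both highest in 786-O, and PMEPA1, also highest in 786-O at 10.37 to 10.47 against 8.23 in C4-2.

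**Figure D3:**
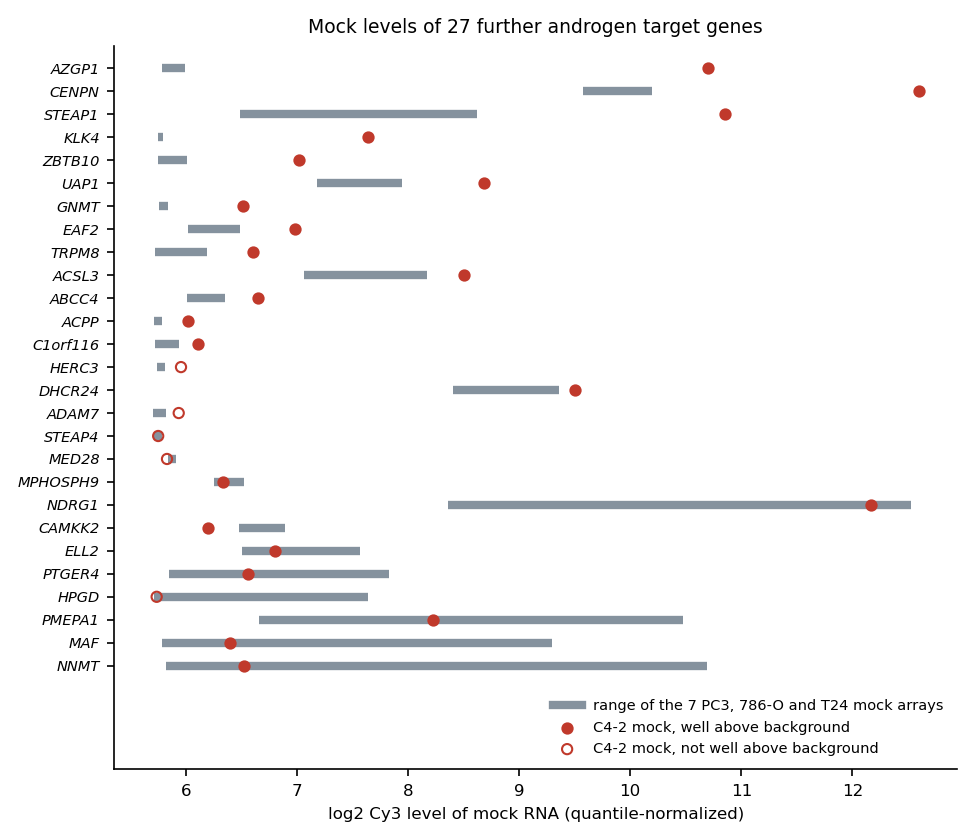
Quantile-normalized log2 Cy3 level of mock RNA for 27 further androgen target genes: points are the C4-2 array (open where not well above background) and bars the range of the 7 PC3, 786-O and T24 arrays, sorted by the difference between C4-2 and the highest of them. AZGP1, CENPN, STEAP1 and KLK4 at the top lay more than 1.5 above the bars, whereas NNMT, MAF and PMEPA1 at the foot lay inside bars that reach above 9.

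Among 10 cofactors and chaperones of the receptor, 9 were well above background in C4-2. Of them GATA2, a pioneer factor, was counted higher there, at 9.57 against at most 6.01, beside 1.65% of all genes. FOXA1, the pioneer factor most closely tied to the receptor, stood at 9.05 in C4-2 and 8.18 to 8.92 in PC3, and lay between 5.84 and 5.93 in 786-O and T24. Its second probe was well above background in C4-2 alone, at 7.11, and not on any PC3 array. Of 5 other steroid receptor genes none was counted. NR3C1, the glucocorticoid receptor, was not well above background in C4-2 with any of its 3 probes, but stood at 8.26 to 8.45 in PC3, 10.06 to 10.09 in 786-O and 8.66 to 8.69 in T24. Of 6 genes known as glucocorticoid targets, which overlap with androgen targets, TSC22D3, KLF9 and ZBTB16 were counted higher in C4-2, beside the same 1.65%. PER1 and DUSP1 were higher there by less than that size. SGK1 was lower in C4-2, at 6.95, than in every other line, at 7.23 or more. TSC22D3 stood at 11.37 in C4-2 and at most at 8.15 elsewhere.

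By the root mean square difference of mock levels over the 8 arrays, each gene centred on its own mean, the genes nearest to KLK3 were GAGE7 (0.59 log2 units), SPON2 (0.69), FOLH1 (0.72), GADD45G (0.78) and PRSS8 (0.80). Each was high on the 1 C4-2 array and low on the others, so this likeness rests on that array. The genes nearest to FKBP5 were DNASE1 (0.05), SNORA34 (0.06), SNORA28 (0.06), GSE1 (0.07) and CBX8 (0.07).

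The second question was whether the genes changed when miR-199-3p was introduced into C4-2, the 1 line where all 8 were measured in both channels. None of the 8 had a ratio (log2, treated over mock) below -1.5 or above 1.5, the size the study used, which 0.121% of the 15686 genes measured on that array had. Of the 8, 7 had a ratio below 0, as had 47.3% of all genes, and 2 lay below -0.5, as did 2.74%. Their median was -0.42, beside 0.01 over all genes, and 3.81% of all genes had a ratio below that median. Median centring aside, which is given below, this share depended on the processing. It lay between 1.39% with no filter on dim probes and 11.3% with the scanner's own log ratio, and was 9.83% with plain background subtraction. With the scanner's own log ratio 4 of the 8 lay beyond 0.5, all below, beside 19.6% of all genes in either direction. With 1 array there is no measure of biological error. Between repeat spots of 1 probe, the median SD on this array was 0.05 log2 units.

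The lowest ratios were those of FOLH1, at -0.63 from intensities of 2338 in mock and 2560 in treated RNA, and STEAP2, at -0.52 from 416 and 430. SLC45A3 had -0.49, from 1093 and 1253. The raw treated signal was above the mock signal for each of these genes, and so it was for KLK2, KLK3 and the rest. On this array Cy5 gained on Cy3 with brightness: before loess, the median ratio of measured spots rose from 0.08 to 0.63 between the dimmest and the brightest of 4 groups of equal size. Loess removes this trend, so each ratio stands relative to spots of like brightness. KLK2 had -0.43, from 992 and 1178, and KLK3 -0.42, from 13592 and 20002. FKBP5 had -0.30, from 106 and 112. TMPRSS2, at -0.01 from 286 and 427, and HOXB13, at 0.03 from 678 and 1104, lay at the middle of all genes.

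Other probes gave smaller values for the same genes. The second probes of KLK3, FOLH1 and STEAP2 read -0.22, -0.34 and -0.27, each on the same side of 0 as the first. The second KLK2 probe read 0.28, on the other side, from 50.3 units in mock and 87.4 in treated RNA, so the direction of KLK2 differed between its probes.

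The sign of the whole group depended on the removal of that dye trend. With ratios centred on the median of the array and no loess, all 8 genes were above 0, from 0.03 for STEAP2 to 0.66 for HOXB13. Under that setting the median of all measured genes was itself 0.30, and 5 of the 8 lay below it, whereas KLK3 at 0.53, TMPRSS2 at 0.52 and HOXB13 lay above it. The median of the 8 was then 0.20, and 36.2% of all genes lay below it. No array had its dyes swapped, so a dye effect of a probe and an effect of miR-199-3p cannot be told apart. The mock cells were not transfected and no array held cells given a control microRNA. An effect of the transfection itself therefore cannot be told apart either, here or on the other microRNA arrays.

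**Figure D4:**
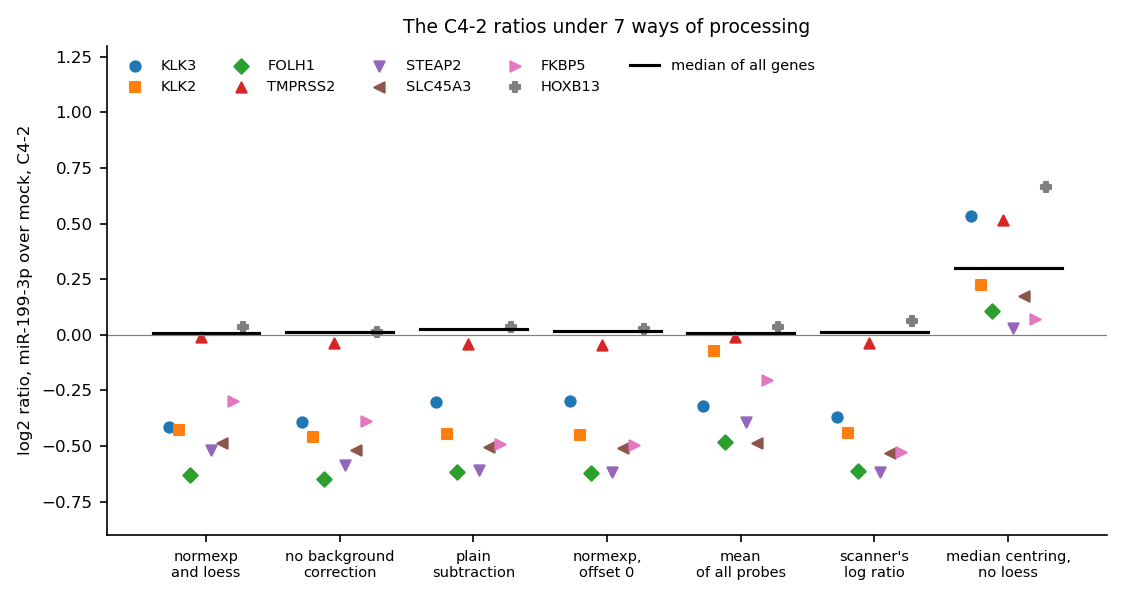
Log2 ratio of miR-199-3p over mock RNA in C4-2 (vertical axis) for the 8 genes under 7 ways of processing the same array, with the median of all measured genes as a black bar. With loess or the scanner's own normalization 7 of the 8 genes lay below 0, and with median centring alone none did, while the median of all genes rose to 0.30.

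Of the 27 further androgen targets, 21 were measured on the C4-2 array. Their median ratio was -0.06, beside 0.01 for all genes. Of them 12 lay below 0 (47.3% of all genes did), 2 below -0.5 (2.74%) and 3 above 0.5. Beyond 0.5 in either direction lay 4.49% of all genes. CENPN had the lowest ratio, -1.10, but another of its probes read 0.25. NDRG1, a stress-responsive gene, had -0.73 and TRPM8, a cold-activated channel, -0.31. The highest were PMEPA1, an inhibitor of TGF-β signalling, at 1.03 with 0.26 on its second probe, NNMT at 0.60 and ELL2, an elongation factor, at 0.52. Among the cofactors, HSP90AA1, the chaperone that holds the receptor in its hormone-binding form, read -1.02, -0.90 and -0.84 on its 3 probes. FOXA1 read 0.09 and GATA2 0.37.

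The last question was whether the genes moved under the other treatments. No member measured in both channels passed 1.5 in either direction on any of the 7 other arrays. Fewer of them were measurable there. In PC3 it was 6 on each bisamide array and 5 on the miR-125b-1-3p array, in 786-O 3 (miR-532-5p) and 2 (miR-532-3p), and in T24 4 (miR-140-5p) or 5 (the array of miR-140-3p). In PC3, 1 member lay beyond 0.5 in either direction after 24 h of bisamide, as did 1.46% of all measured genes, and no member did after 48 h (1.79% of genes) or on the miR-125b-1-3p array (2.65%). In 786-O it was 1 member for miR-532-5p, where 7.28% of genes lay beyond 0.5, and no member for miR-532-3p (5.54%). In T24 it was 1 member for miR-140-5p (4.63% of genes) and none for miR-140-3p (2.09%).

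HOXB13 was the member at bisamide 24 h, with a ratio of -0.52. In the same line it read -0.14 at 48 h, and -0.21 on the miR-125b-1-3p array. Only 0.34% of genes had a lower ratio at 24 h, but its sign turned when the dye trend was left in. With median centring alone it was 0.44 at 24 h, against 0.45 for the median of all genes, so its place below the other genes was lost. With the scanner's own log ratio it was -0.49 at 24 h, and 5.25% of genes were lower.

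SLC45A3 was the member on the microRNA arrays of the lines outside the prostate. In 786-O its ratio was 0.55 for miR-532-5p and 0.25 for miR-532-3p. In T24 it was 0.55 for miR-140-5p and 0.31 for miR-140-3p. It lay between -0.08 and -0.06 on the 3 PC3 arrays. The positive values stood above the median of all genes with median centring too, at 0.44 against -0.03, 0.51 against 0.17, 0.96 against 0.35 and 0.80 against 0.45 in the same order. These arrays share a line in pairs and may share mock RNA, so a pair is not independent.

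The size of the other ratios depended on the offset, which shrinks those of dim genes. STEAP2 read 0.31 at both bisamide times and 0.23 with miR-125b-1-3p in PC3, and -0.34 with miR-140-5p in T24. FKBP5 read -0.32 and -0.27 with bisamide at 24 and 48 h, where 2.28% and 4.2% of genes had lower ratios. With the scanner's own log ratio, which has no offset, FKBP5 read -0.78 and -0.70 there, with 1.64% and 2.28% of genes lower, and -1.15 with miR-532-5p in 786-O, where it read -0.15 with the offset and its mock intensity was 32.3 units. STEAP2 then read -0.94 with miR-140-5p and -0.62 with miR-532-5p. By that ratio the members beyond 0.5 were FKBP5 at both bisamide times, beside 8.8% and 9.21% of genes, FKBP5, SLC45A3 and STEAP2 with miR-532-5p, beside 29.9%, and SLC45A3 and STEAP2 with miR-140-5p, beside 18.1%. HOXB13 was not among them. TMPRSS2 lay between -0.15 and 0.09 in PC3, and KLK2 between -0.03 and 0.00 where it was measured, at intensities close to background. The representing probes of KLK3 and FOLH1 were well above background in both channels on no array other than that of C4-2. The second KLK3 probe was so on the array of bisamide at 48 h too, at 27.4 and 25.8 units, with a ratio of 0.03.

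**Figure D5:**
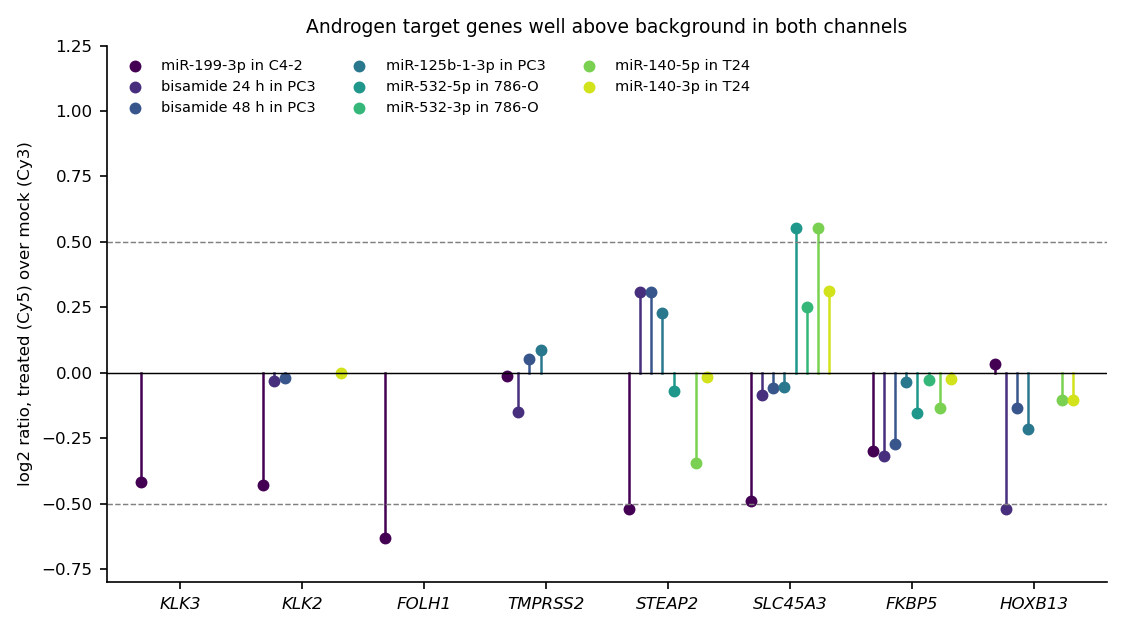
Log2 ratio of treated (Cy5) over mock (Cy3) RNA for each of the 8 genes on each array with both channels well above background, 1 stem an array, with dashed lines at -0.5 and 0.5. The lowest stem is FOLH1 on the C4-2 array at -0.63, and the highest are SLC45A3 at 0.55, on 1 array of 786-O and 1 of T24.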

How the data were processed

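Mock and treated RNA of 8 groups was hybridised to 8 Agilent two-colour arrays. Per the file headers, the authors read them with Feature Extraction 11.5.1.1, and the deposited intensity of each spot is linear and not normalized. The deposited series table holds the scanner's log10 ratio. The headers give GRCh37 as the build of the probe positions. From these intensities, log2 ratios were computed here with limma 3.58.1 in R 4.3.3 (normexp, offset 50, loess within arrays, control and outlier spots left out), and mock levels as quantile-normalized log2 Cy3. Each gene was represented by its brightest probe. The 8 genes were always named. From the further targets those with the largest C4-2 difference among counted genes and the 3 lowest and 3 highest C4-2 ratios were named, with FOXA1, NR3C1 and examples of the other lists; any other gene named was chosen after its values were seen. A further listed target is not reported here. The genes and lists were chosen with earlier results of these data known. Alternatives changed the background correction, normalization, probe rule, filter, size threshold and mock arrays used. The steps were tested on simulated data. The precision is limited by how few arrays there are.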

Additional observations from a re-analysis of the deposited data

How the results depend on the processing

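The count of genes higher in C4-2 was between 5 and 7 under all alternatives. It was 6 with any 1 of the 7 mock arrays of the other lines left out, a step that could not lower it. The 1 C4-2 mock array, on which the count rests, could not be left out. All 248 alternative values of a gene's difference between C4-2 and another line kept their sign, though the difference of KLK3 over PC3, 8.05, was 15.1 with the scanner's processed signal and 5.39 with the mean over all probes. No member passed 1.5 on any array under any alternative. FKBP5 with miR-532-5p passed 1.0, at -1.15, with the scanner's log ratio and the deposited table, and the members beyond 0.5 changed with the offset. The median ratio of the 8 genes with miR-199-3p was -0.42, -0.26 with the mean over all probes, -0.48 with the scanner's log ratio and with the deposited series table, -0.29 with each gene's median over the other arrays subtracted, which left 6 genes, and 0.20 with median centring in place of loess. Of 310 alternative ratios of single genes 269 kept their sign. No paired analysis was possible because no group has a second array. KLK3, KLK2 and FOLH1 were near background outside C4-2, so neither an order of the other lines nor a response there could be read.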
